A study of Mus musculus with 10 samples.

Results

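Loss of 1 allele of Gatad2b was examined in mouse cortex at E16.5 (the embryonic day) by comparing 4 Gatad2b stop/+ (Het) embryos with 3 WT embryos, 7 of the 10 embryos of the series. The members were chosen by the genotype in the sample labels, and each embryo gave 1 single-cell RNA library. The stop allele is Gatad2b tm1a(EUCOMM)Hmgu, a trapping cassette placed within the gene and carried in all cells from conception, on a C57BL/6N-A tm1Brd background, and the WT embryos carry no such allele. The other 3 embryos, Gatad2b stop/stop (KO), entered the statistical fit to help estimate the spread between embryos, and their values are given in places. The embryos were collected fresh from timed pregnancies and genotyped from the rest of the body, and are described as littermates, but which embryos shared a litter and their sexes are not given. The p-values measure the spread between embryos of the same genotype, and no term for the litter was fitted.

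Gatad2b encodes p66-beta, a scaffold subunit of the nucleosome remodeling and deacetylase (NuRD) complex. NuRD joins the ATP-driven remodeling of nucleosomes by Chd3, Chd4 or Chd5 with the removal of acetyl groups from histones by Hdac1 and Hdac2, and is known mainly for lowering or fine-tuning the transcription of its targets. In the developing cortex it acts both in dividing progenitors and in young neurons, where the exchange of Chd4, Chd5 and Chd3 accompanies proliferation, migration and layer identity. The comparison of Het with WT asks which of these programs differ when a single working copy remains, as in the human syndrome GAND.

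UMIs, the counts of distinct captured RNA molecules, were summed per embryo. Only cells that held 1000 UMIs or more, no more than 10% of them mitochondrial, were used. This left 7159 to 8103 cells per WT embryo and 5613 to 7917 per Het embryo, with 93254117 to 123737385 UMIs in the sum of an embryo. In such a sum, fewer cells of a type and less RNA per cell cannot be told apart. Values of embryos are CPM (counts scaled to a common library size) after TMM normalization. Each molecule was counted once, by its 3′ end, so that levels of genes may be set side by side without division by length. Changes are log2 differences, Het minus WT, with their SE. The SE was worked back from the F statistic of the test, and so rests on the spread shared over all embryos, KO included. The library names carry 1 of 2 prefixes, whose meaning is not given in the sources used here. The 3 WT libraries and Het replicate 4 share a prefix, while Het replicates 1 to 3 share the other with the KO libraries. The genotype and the prefix therefore overlap except in Het replicate 4, and the value of that embryo is given beside most results. The main fit has no term for the prefix, so its p-values do not cover a difference between the prefixes. Het replicates 1 to 3, most of the Het group, differ from WT in both genotype and prefix.

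Genes were called where the adjusted p was below 0.05 and the log2 change exceeded 0.25 in size. Of 17647 genes tested, 278 (1.58%) were called higher and 247 (1.4%) lower in Het, and the median log2 change of all genes was 0.00048. Most of the changes were small: 81 of the higher and 96 of the lower genes were beyond 0.5 on the log2 scale, and 20 and 26 beyond 1. In 269 of the 278 higher genes and 246 of the 247 lower genes Het replicate 4 lay beyond all 3 WT embryos on the called side, against 29.2% of all genes with Het replicate 4 above and 28.4% below all WT embryos, though it is itself one of the 4 embryos that made the call. Against WT the median difference of the higher genes was 0.40 in Het replicates 1 to 3 and 0.29 in Het replicate 4, and that of the lower genes was -0.45 and -0.32. When Het replicate 4 alone was set against the 3 WT embryos, in a fit that assumes this single embryo to vary like the other groups, 41 genes (0.232%) were called, and 14 of them were among the higher and 14 among the lower genes. With only the spread of the 3 WT embryos to compare against, 2 genes were called, Kif26b and Rgs5. Differences between Het replicate 4 and WT or the other Het embryos are therefore given below as values. Het replicates 1 to 3 differed from Het replicate 4, which has the same genotype, in 614 genes (3.48%), of which 39 were among the higher and 24 among the lower genes. This count too takes the spread of the single embryo from the other groups. The number of calls rested on the embryos used: 1829 genes were called without Het replicate 4, and 74 to 315 when any other single embryo was left out. Without Het replicate 4 the genotype and the prefix coincide in all WT and Het libraries, so those calls cannot be assigned to either. DESeq2 called 1002. Calls on single genes with an adjusted p near 0.05 are therefore to be read with their values per embryo.

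Gatad2b itself was lower in all 4 Het embryos. The gene (ENSMUSG00000042390) lies on the forward strand at chr3:90293178-90363407 of GRCm38. WT embryos had 139, 131 and 133 CPM, Het replicates 1 to 3 had 94.2, 89.8 and 90.0 CPM and Het replicate 4 had 95.7 CPM, so the 2 groups did not overlap and Het replicate 4 lay with the other Het embryos. The mean was 134 ± 4.35 (SD, n = 3) in WT and 92.4 ± 2.97 (SD, n = 4) in Het, a ratio of 0.687, with a log2 change of -0.54 ± 0.045 (adjusted p = 0.000756). Het replicate 4 differed from WT by -0.49. Het replicates 1 to 3 minus Het replicate 4 was -0.067. The KO embryos had 50.9 to 57.3 CPM. The libraries count the 3′ ends of transcripts, so UMIs here do not say whether a transcript ran through the cassette. Gatad2b was called under 22 of 23 alternatives, the exception being Het replicate 4 against the 3 WT embryos with only their spread.

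Over the 15 NuRD subunits tested the median log2 change was 0.035, and the median level in Het replicate 4 was 0.089 above WT. Among the 14 other than Gatad2b, 2 were called, both higher. Hdac1, 1 of the 2 catalytic deacetylases, had 33.1, 33.6 and 34.0 CPM in WT and 41.3, 38.6, 38.7 and 41.9 CPM in Het replicates 1 to 4. It was thus higher in every Het embryo than in any WT embryo, with a log2 change of 0.26 ± 0.038 (adjusted p = 0.00857) and a difference from WT of 0.32 in Het replicate 4. Without WT replicate 1, Het replicate 1 or Het replicate 4 the change was 0.24, under the threshold on size. Cdk2ap1, a small accessory subunit that also binds Cdk2, had 78.1, 82.8 and 69.2 CPM in WT and 135, 124 and 132 CPM in Het replicates 1 to 3. Het replicate 4 had 79.9 CPM, within the WT range, so that the groups overlapped although the gene was called (0.62 ± 0.16, adjusted p = 0.0482). Het replicates 1 to 3 differed from Het replicate 4 by 0.70.

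None of the remaining 12 subunits was called with all embryos. Without Het replicate 4 the called subunits were Gatad2b and Chd5 (at -0.33, adjusted p = 0.0239), both lower, and Cdk2ap1, higher. In that fit genotype and prefix cannot be told apart. Without another embryo 1 to 2 subunits were called. Gatad2a, the paralog that can take the place of Gatad2b in the complex, had 49.8, 48.7 and 52.4 CPM in WT and 53.6, 52.3, 53.7 and 59.4 CPM in Het (0.12 ± 0.053, adjusted p = 0.167). The remodeler Chd4 had 356, 331 and 353 CPM in WT, 312, 301 and 304 CPM in Het replicates 1 to 3 and 371 CPM in Het replicate 4. Chd3, the most abundant subunit, had 599 to 657 CPM in WT, 571 to 589 CPM in Het replicates 1 to 3 and 719 CPM in Het replicate 4. For both remodelers Het replicate 4 was above and the other Het embryos below all WT embryos, and Het replicates 1 to 3 differed from Het replicate 4 by -0.28 for Chd4 and -0.31 for Chd3. Chd5, the neuronal remodeler, had 72.4 to 83.4 CPM in WT and 53.8 to 75.8 CPM in Het (75.8 in Het replicate 4, log2 change -0.26 ± 0.098, adjusted p = 0.123). The log2 changes of the other subunits were 0.14 for the deacetylase Hdac2, 0.10 and 0.038 for the methyl-CpG-binding Mbd2 and Mbd3, 0.13, 0.01 and -0.0018 for the scaffolds Mta1, Mta2 and Mta3, and 0.018 and 0.035 for the histone chaperones Rbbp4 and Rbbp7, with adjusted p from 0.0859 to 0.987.

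**Figure D1:**
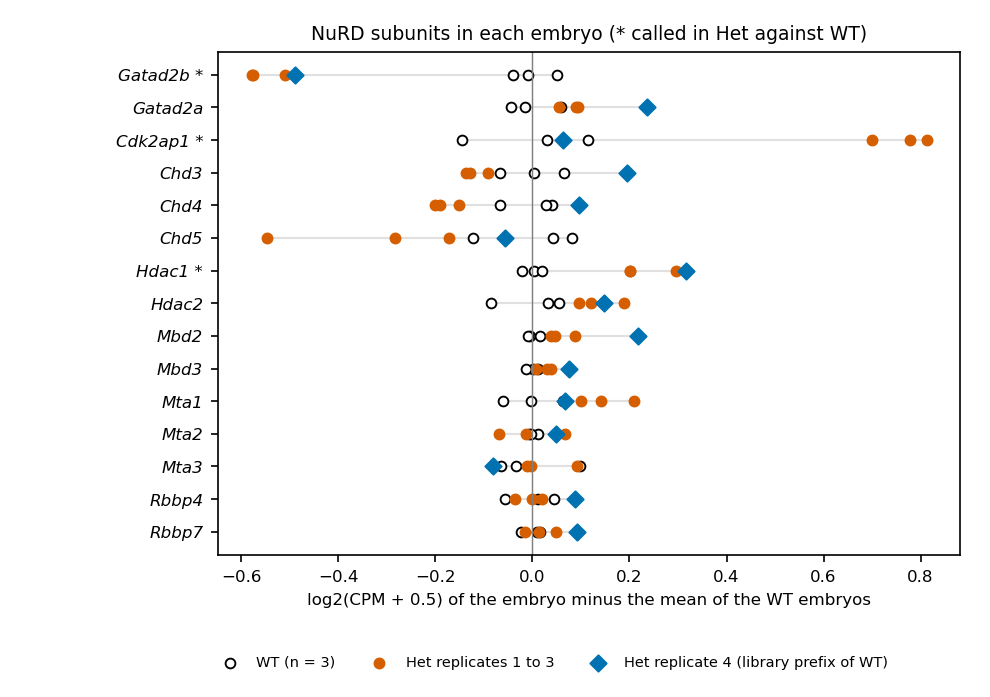
Level of the 15 NuRD subunits in each WT and Het embryo, as log2(CPM + 0.5) minus the mean of the 3 WT embryos (horizontal axis), with open circles for WT, filled circles for Het replicates 1 to 3 and diamonds for Het replicate 4. Gatad2b is lower in all 4 Het embryos and Hdac1 higher, while Cdk2ap1 is at 124 to 135 CPM in Het replicates 1 to 3 and at 79.9 CPM in Het replicate 4.

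The largest decreases among called genes with at least 20 CPM, no overlap between groups and Gatad2b left aside include Nts, Itpr1 and Dtx4. Nts, which encodes the neuropeptide neurotensin, had 42.7, 50.2 and 56.4 CPM in WT and 18.4, 19.7, 26.8 and 13.7 CPM in Het replicates 1 to 4, the lowest value being that of Het replicate 4. Its log2 change was -1.34 ± 0.24 (adjusted p = 0.0188). The KO embryos had 4.01 to 9.52 CPM. Itpr1, the IP3 receptor that releases calcium from the endoplasmic reticulum, had 92.8, 73.6 and 78.9 CPM in WT and 57.0, 54.9, 52.3 and 52.1 CPM in Het (-0.60 ± 0.07, adjusted p = 0.00392). Dtx4, an E3 ubiquitin ligase of the Deltex family that acts in Notch signaling, had 24.7, 25.4 and 23.5 CPM in WT and 14.0, 15.7, 15.9 and 14.2 CPM in Het (-0.71 ± 0.052, adjusted p = 0.000362). That all 4 Het embryos were below every WT value follows from the way these genes were chosen. Het replicate 4 differed from WT by -0.65 for Itpr1 and -0.79 for Dtx4.

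Kif26b, an atypical kinesin, had 30.1 to 30.7 CPM in WT and 18.1 to 22.1 CPM in Het, with the lowest value in Het replicate 4 (-0.63 ± 0.071, adjusted p = 0.00349). Ptprk, a receptor tyrosine phosphatase of cell contacts, had 91.5 to 107 CPM in WT and 63.8 to 72.9 CPM in Het, with the lowest value in Het replicate 4 (-0.53 ± 0.062, adjusted p = 0.00392). Mast4, a microtubule-associated kinase, had 23.6 to 27.1 CPM in WT and 14.5 to 19.7 CPM in Het (17.4 in Het replicate 4, log2 change -0.54 ± 0.1, adjusted p = 0.0247). In the long noncoding RNA Gm30382 the WT embryos had 32.1 to 34.3 CPM, Het replicates 1 to 3 had 17.4 to 18.9 CPM and Het replicate 4 had 24.7 CPM. Het replicate 4 lay between the other Het embryos and WT there, with a log2 difference from WT of -0.43, and Het replicates 1 to 3 differed from it by -0.46. Tnr, the extracellular matrix protein tenascin-R, was named after its values were seen: it had 31.6, 31.6 and 30.1 CPM in WT and 20.9, 21.3, 21.6 and 22.5 CPM in Het (-0.53 ± 0.052, adjusted p = 0.00238).

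The largest increases by the same rule were in Hist1h1e, AC149090.1, Gadd45g, Ifitm2, Eomes, Nfia, Hist1h3e and E130114P18Rik. Gadd45g, a stress-inducible gene that is also switched on in newborn neurons, had 30.3, 32.1 and 34.3 CPM in WT, 58.2, 49.3 and 48.6 CPM in Het replicates 1 to 3 and 48.6 CPM in Het replicate 4. Its Het values were all above the WT range, as the rule of choice requires (0.67 ± 0.067, adjusted p = 0.00238). The KO embryos had 74.5 to 79.2 CPM. Ifitm2, an interferon-induced membrane protein, had 47.6 to 60.2 CPM in WT, 82.9 to 93.4 CPM in Het replicates 1 to 3 and 67.1 CPM in Het replicate 4 (0.64 ± 0.11, adjusted p = 0.0179). AC149090.1, a gene model on an unplaced scaffold, had 38.9 to 65.7 CPM in WT, 92.7 to 137 CPM in Het replicates 1 to 3 and 68.2 CPM in Het replicate 4 (0.94 ± 0.23, adjusted p = 0.044). For both, Het replicate 4 was above WT by less than the other Het embryos were. E130114P18Rik, a gene model on the reverse strand at chr4:97568133-97778078 whose start overlaps the start of Nfia at chr4:97772734-98118874 on the forward strand, had 12.5, 18.6 and 13.9 CPM in WT and 24.0, 22, 21.6 and 22.3 CPM in Het (0.58 ± 0.11, adjusted p = 0.0233). The other 4 are given with their families.

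Gene families were compared through lists of their members, and 111 of the 1417 distinct genes on 60 lists were called. For each family and embryo, the median over tested members of log2(CPM + 0.5) minus the WT mean is given, on the log2 scale. The median log2 change of a family is instead taken over the fitted changes of its members. It is thus another measure, and can lie outside the values of the embryos. Where a family is said to have members without overlap, every Het embryo was on 1 side of every WT embryo, which held for 10.5% of all genes tested on the higher side and 9.27% on the lower side. An unadjusted p under 0.05 by edgeR, given for some families, held for 26.9% of all genes.

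The calls of a list depended on the embryos used. Of the 29 lists with 1 or 2 calls, 22 had none when some embryo other than Het replicate 4 was left out, and of the 17 lists with no call 11 had at least 1 without Het replicate 4. The number of members called without Het replicate 4, and its range when any 1 of the other 9 embryos was left out, is given with most families. Calls without Het replicate 4 set WT and Het libraries of different prefixes against each other. Genotype and prefix cannot be told apart in them. Some medians of at least 0.1 in size also moved by over 1.5 times when 1 embryo was left out. That of CDK inhibitors became 0.059 without Het replicate 2. For upper-layer factors it became -0.072 without WT replicate 1. For interneuron and striatal factors it became 0.05 without WT replicate 1 and 0.04 without Het replicate 4. Metabotropic glutamate receptors went to -0.15 without WT replicate 2 and -0.19 without Het replicate 1. GABA receptors went to -0.14 without WT replicate 2. IP3 and ryanodine receptors went to -0.11 without WT replicate 1 and -0.27 without Het replicate 4. The midkine and pleiotrophin list went to -0.073 without WT replicate 1 and -0.068 without Het replicate 2. Sall genes went to 0.015, 0.21 and 0.08 without WT replicate 1, WT replicate 2 or Het replicate 3.

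**Figure D2:**
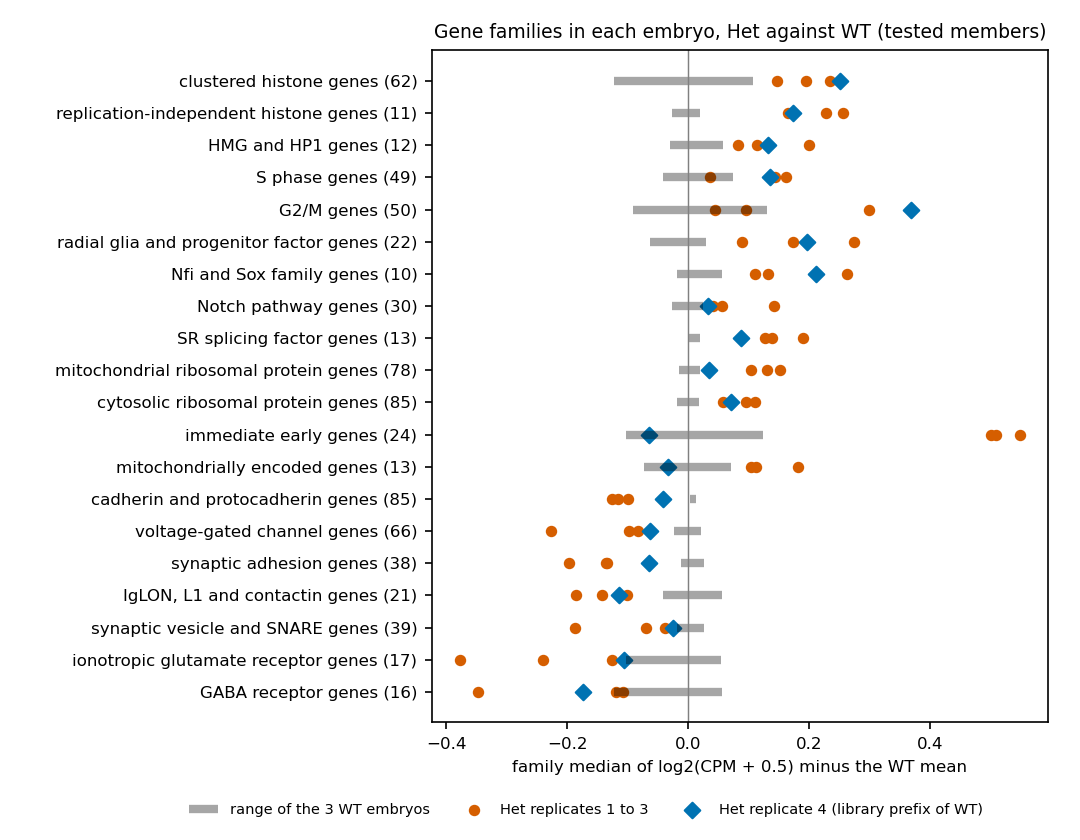
Median over the tested members of 20 gene families (their number in brackets) of log2(CPM + 0.5) minus the mean of the WT embryos, with grey bars for the range of the 3 WT embryos, circles for Het replicates 1 to 3 and diamonds for Het replicate 4. Histone families and Nfi and Sox genes are above the WT range and synaptic adhesion and cadherin genes below it in all 4 Het embryos, whereas in immediate early genes Het replicates 1 to 3 are at 0.50 to 0.55 and Het replicate 4 is at -0.065.

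Clustered histone genes were the list with the most calls among the 60, all of them higher in Het. Histones H2A, H2B, H3 and H4 form the nucleosome core and H1 binds the linker DNA between nucleosomes. Most of their genes sit in clusters that are transcribed in S phase, while a smaller set of single genes supplies variants outside S phase. Of 62 clustered histone genes tested, 15 were called higher and 0 lower, against 1.58% of all genes called higher, and 21 were higher without overlap. Their median log2 change was 0.27, and by embryo it was 0.24, 0.15 and 0.20 in Het replicates 1 to 3 and 0.25 in Het replicate 4, against -0.12 to 0.11 in WT. The count of 15 calls became 21 higher and 3 lower without Het replicate 4, but 4 without WT replicate 1 or 3, 5 without Het replicate 1 and 7 without Het replicate 2 or 3. It was 12 without WT replicate 2, 10 without any 1 of the KO embryos and 6 without all of them. Clustered histone transcripts mostly lack a poly(A) tail, so that a 3′ poly(A) library captures a small part of them, and their coding sequences are alike enough for reads to be shared between copies. Both limits apply to every clustered histone value here.

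Hist1h1e, an H1 linker histone on chromosome 13, had 128, 104 and 102 CPM in WT, 261, 254 and 230.0 CPM in Het replicates 1 to 3 and 156 CPM in Het replicate 4. All Het embryos were above WT, and Het replicate 4 was nearest to it (1.02 ± 0.15, adjusted p = 0.00945). The difference between Het replicates 1 to 3 and Het replicate 4 was 0.67. Hist1h1b, a second H1 gene, had 128, 150.2 and 115 CPM in WT and 197, 195, 180.0 and 199.8 CPM in Het, with the highest value in Het replicate 4 (0.55 ± 0.075, adjusted p = 0.00551). Hist1h1a, another H1 gene, was also called, with 13.1 to 16.2 CPM in WT, 17.7 to 20.6 CPM in Het replicates 1 to 3 and 21.8 CPM in Het replicate 4 (0.42 ± 0.08, adjusted p = 0.0247). Of the core histones, Hist1h3e had 15.2 to 16.1 CPM in WT, 24.4 to 25.6 CPM in Het replicates 1 to 3 and 20.7 CPM in Het replicate 4 (0.60 ± 0.071, adjusted p = 0.00395). Hist2h2ac had 8.21 to 10.4 CPM in WT and 13.0 to 14.7 CPM in Het, with the highest value in Het replicate 4 (0.57 ± 0.086, adjusted p = 0.0101). The called members ranged from 0.36 to 1.02, with adjusted p from 0.00395 to 0.0496. Hist3h2ba, the most abundant member, had 396 to 428 CPM in WT and 436 to 501 CPM in Het (436 in Het replicate 4) and was not called (0.21 ± 0.063, adjusted p = 0.0713).

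Of 11 replication-independent histone genes, 5 were called higher and 0 lower, and 8 were higher without overlap. The median log2 change was 0.20, or 0.26, 0.23 and 0.16 in Het replicates 1 to 3 and 0.17 in Het replicate 4, with WT from -0.027 to 0.02. Without WT replicate 1 or 3 there was 1 call, without Het replicate 1 or 2 there were 2, and without WT replicate 2 or KO replicate 3 there were 3, against 5 without Het replicate 4 and 4 without another embryo. H3f3b, 1 of the 2 genes of histone H3.3, had 2512, 2434 and 2619.6 CPM in WT, 3485, 3384 and 3264 CPM in Het replicates 1 to 3 and 2843 CPM in Het replicate 4 (0.36 ± 0.063, adjusted p = 0.0174). Het replicate 4 was above WT but below the other Het embryos. H1f0, the linker histone of slowly dividing and differentiating cells, had 144, 132 and 132 CPM in WT and 189, 163, 178 and 181 CPM in Het (0.39 ± 0.056, adjusted p = 0.00851). The H2A variant gene H2afv had 285 to 292 CPM in WT and 347 to 377 CPM in Het (349 in Het replicate 4, log2 change 0.30 ± 0.048, adjusted p = 0.0119). The centromeric Cenpa had 31.6 to 35.0 CPM in WT and 37.1 to 43.9 CPM in Het (43.3 in Het replicate 4, log2 change 0.30 ± 0.063, adjusted p = 0.0304). The fifth was H2afz, with 810.3 to 845 CPM in WT and 913 to 1056 CPM in Het (913 in Het replicate 4, log2 change 0.25 ± 0.052, adjusted p = 0.0304). H3f3a, the other H3.3 gene and the most abundant of the list, had 2664 to 2813 CPM in WT, 3179 to 3274 CPM in Het replicates 1 to 3 and 2861 CPM in Het replicate 4 and was not called (adjusted p = 0.0637). Among 12 HMG and HP1 genes, which encode other architectural proteins of chromatin (median log2 change 0.15, Het replicate 4 at 0.13, 2 higher and 1 lower called without Het replicate 4 and 0 to 1 without another embryo), 2 were called higher and 6 were higher without overlap. Hmgb2, an HMG-box protein of dividing cells, had 299.8 to 375 CPM in WT and 402 to 456 CPM in Het (454 in Het replicate 4, log2 change 0.36 ± 0.072, adjusted p = 0.0278). The HP1 gene Cbx3 had 444, 469 and 417 CPM in WT, 635, 608 and 655 CPM in Het replicates 1 to 3 and 470.3 CPM in Het replicate 4, only just above the highest WT embryo (0.42 ± 0.1, adjusted p = 0.0433). Hmgb1, the most abundant, was at 1625 to 1730.4 CPM in WT and 1615 to 1738 CPM in Het (1738 in Het replicate 4, adjusted p = 0.934).

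All calls among genes of the cell cycle were increases. Of 50 G2/M genes, which drive chromosome condensation, spindle assembly and mitotic exit, 10 were called higher and 0 lower, and 13 were higher without overlap. The median log2 change was 0.20, but the embryos were spread: the medians were 0.30, 0.044 and 0.096 in Het replicates 1 to 3 and 0.37 in Het replicate 4, while the WT embryos ranged from -0.092 to 0.13. Het replicate 1 and Het replicate 4 were thus above the WT range, and Het replicates 2 and 3 within it. Het replicate 4 was above all 3 WT embryos in 45 of the 50 members, against 29.2% of all genes. Without Het replicate 4, 8 members were called higher, but 1 without WT replicate 1 or 3, 3 without Het replicate 1, 5 without Het replicate 2, 6 without KO replicate 3 and 4 without any KO embryo. There were 7 calls without Het replicate 3, KO replicate 1 or KO replicate 2, and 9 without WT replicate 2.

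Cks2, a small subunit of the cyclin-dependent kinases, had 37.0, 42.9 and 36.3 CPM in WT and 57.2, 48.5, 51.2 and 51.7 CPM in Het (0.43 ± 0.071, adjusted p = 0.0139). Birc5, the survivin subunit of the chromosomal passenger complex, had 23.9, 27.8 and 23.9 CPM in WT and 35.2, 32.3, 33.1 and 33.6 CPM in Het (0.41 ± 0.066, adjusted p = 0.0119). Neither gene's groups overlapped, and in both Het replicate 4 lay inside the range of the other Het embryos. Cdc20, the activator of the anaphase-promoting complex, had 16.53, 18.1 and 16.6 CPM in WT and 22.3, 20.3, 20.2 and 23.7 CPM in Het (0.34 ± 0.062, adjusted p = 0.0197). Cdca3, a partner of mitotic entry, had 16.4, 19.5 and 17.6 CPM in WT and 25.0, 21.3, 21.0 and 24.6 CPM in Het (0.37 ± 0.074, adjusted p = 0.0298). Cks1b, another small kinase subunit, had 45.3 to 48.0 CPM in WT and 57.9 to 60.5 CPM in Het (59.3 in Het replicate 4, log2 change 0.33 ± 0.039, adjusted p = 0.00392). The most abundant member, the microtubule polymerase Ckap5, was at 165 to 173 CPM in WT and 157 to 179 CPM in Het (179 in Het replicate 4) and was not called (adjusted p = 0.637).

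The promoters of these genes are shown because all calls in both families were increases, and because both classes are known for CCAAT boxes and, in G2/M genes, for the cell cycle homology region. In each sequence of 300 bases, from 250 before to 50 after the RefSeq start in GRCm38.p6, capitals mark CCAAT and TTTGAA, read on either strand (ATTGG and TTCAAA). In the H1 genes they mark CCAAT alone. The motifs do not overlap each other in these sequences.
Cks1b (chr3:89418242-89418541, reverse strand): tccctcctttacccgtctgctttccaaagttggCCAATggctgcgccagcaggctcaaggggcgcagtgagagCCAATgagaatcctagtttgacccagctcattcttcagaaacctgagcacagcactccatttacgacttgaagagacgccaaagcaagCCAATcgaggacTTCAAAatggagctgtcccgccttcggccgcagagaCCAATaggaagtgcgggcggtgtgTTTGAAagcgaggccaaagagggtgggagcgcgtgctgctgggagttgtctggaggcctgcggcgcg
Cdc20 (chr4:118437294-118437593, reverse strand): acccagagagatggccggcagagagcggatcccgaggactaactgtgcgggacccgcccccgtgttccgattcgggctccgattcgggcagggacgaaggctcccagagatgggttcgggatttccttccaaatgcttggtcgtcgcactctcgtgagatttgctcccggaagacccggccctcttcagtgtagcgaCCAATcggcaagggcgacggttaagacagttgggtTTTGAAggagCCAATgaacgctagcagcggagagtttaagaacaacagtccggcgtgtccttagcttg
Hist1h1b (chr13:21780576-21780875, reverse strand): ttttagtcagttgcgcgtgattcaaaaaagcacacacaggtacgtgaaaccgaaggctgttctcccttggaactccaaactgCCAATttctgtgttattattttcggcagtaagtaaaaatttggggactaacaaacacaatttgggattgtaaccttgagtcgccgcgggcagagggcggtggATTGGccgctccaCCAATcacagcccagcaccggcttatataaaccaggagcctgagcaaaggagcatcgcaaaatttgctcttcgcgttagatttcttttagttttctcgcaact
Hist1h1e (chr13:23622509-23622808, reverse strand): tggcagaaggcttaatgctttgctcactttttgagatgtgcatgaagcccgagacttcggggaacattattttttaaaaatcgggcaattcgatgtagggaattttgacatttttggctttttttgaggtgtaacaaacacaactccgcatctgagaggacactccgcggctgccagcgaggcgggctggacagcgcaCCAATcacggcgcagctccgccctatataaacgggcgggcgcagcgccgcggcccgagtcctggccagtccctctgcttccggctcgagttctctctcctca

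TTTGAA stood in 68.1% of the 47 promoters of the 43 G2/M genes that could be matched, and in 7 of the 9 promoters of called ones. Over the 15385 promoters of all matched genes tested the share was 12.4%. CCAAT stood in 84.5% of the 58 promoters of 57 matched clustered histone genes, in all 14 promoters of called ones, and in 37.5% of the promoters of all genes tested. TTTGAA stood in 46.6% of the clustered histone promoters, and CCAAT in 76.6% of the G2/M promoters. The lists were chosen by function, so these shares describe the families and not the change in Het.

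**Figure D3:**
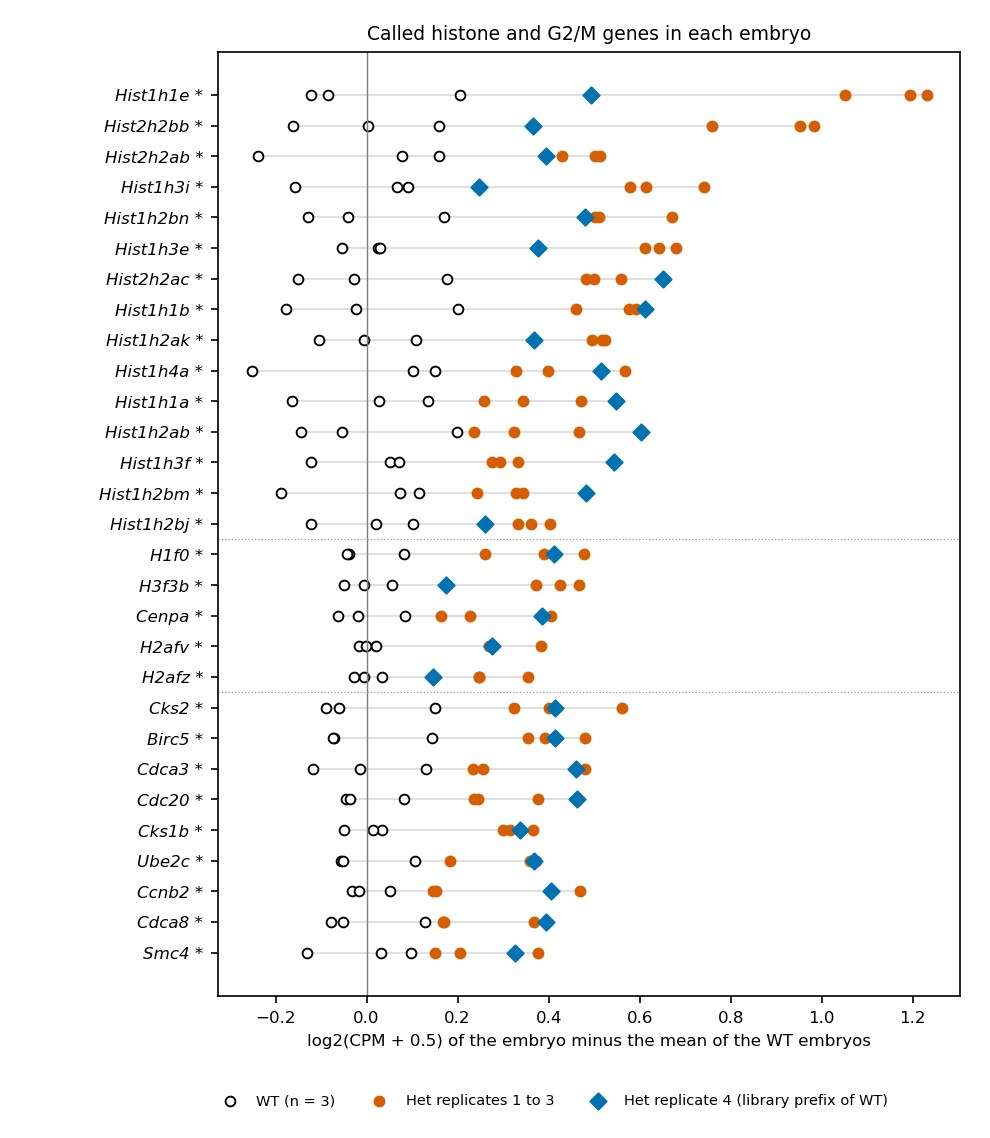
Level of the called clustered histone genes (top), replication-independent histone genes (middle) and G2/M genes (bottom) in each embryo, as log2(CPM + 0.5) minus the mean of the WT embryos, with symbols for WT, Het replicates 1 to 3 and Het replicate 4. All Het points lie to the right of the WT points, and Hist1h1e is at 230.0 to 261 CPM in Het replicates 1 to 3 and 156 CPM in Het replicate 4.

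Of 49 S phase genes, 6 were called higher and 0 lower, and 17 were higher without overlap. The median log2 change was 0.12, or 0.16, 0.037 and 0.14 in Het replicates 1 to 3 and 0.14 in Het replicate 4, with WT from -0.041 to 0.075. Het replicate 2 was within the WT range and the others above it. Without Het replicate 4, 9 were called, but none without WT replicate 1, WT replicate 3 or Het replicate 3, and 1 to 4 without another embryo. With all KO embryos left out 1 was called. Pcna, the sliding clamp of DNA polymerase, had 26.4, 30.3 and 25.6 CPM in WT, 39.6, 39.4 and 42.2 CPM in Het replicates 1 to 3 and 30.1 CPM in Het replicate 4, so that Het replicate 4 fell within WT (0.46 ± 0.11, adjusted p = 0.0458). Dtl, which marks licensing factors for destruction, had 8.69 to 9.91 CPM in WT, 12.2 to 14.7 CPM in Het replicates 1 to 3 and 10.9 CPM in Het replicate 4 (0.45 ± 0.087, adjusted p = 0.025). Gmnn, the licensing inhibitor geminin, had 11.1 to 14.2 CPM in WT and 14.9 to 17.6 CPM in Het (16.1 in Het replicate 4, log2 change 0.42 ± 0.089, adjusted p = 0.034). The helicase subunit Mcm2 had 9.08 to 9.82 CPM in WT and 10.2 to 12.9 CPM in Het (12.9 in Het replicate 4, log2 change 0.35 ± 0.082, adjusted p = 0.0433). Uhrf1 had 10.8 to 12.3 CPM in WT and 13.7 to 15.2 CPM in Het (14.1 in Het replicate 4). Atad2 had 26.5 to 31.9 CPM in WT and 32.1 to 38.1 CPM in Het (36.7 in Het replicate 4), and both passed (adjusted p = 0.0189 and 0.044). Among 8 genes of CDK inhibitors (median log2 change 0.11, Het replicate 4 at 0.061, 2 higher called without Het replicate 4 and 0 without another embryo) 1 was called, Cdkn3, at 3.84 to 4.28 CPM in WT and 4.76 to 5.6 CPM in Het (5.12 in Het replicate 4, log2 change 0.32 ± 0.081, adjusted p = 0.0494). Cdkn1b, the most abundant of them, was not (adjusted p = 0.9).

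Of 22 factors of radial glia and intermediate progenitors, 4 were called higher and 0 lower, with a median of 0.21 and with 0.27, 0.17 and 0.088 in Het replicates 1 to 3 and 0.20 in Het replicate 4, against -0.064 to 0.03 in WT. Without Het replicate 4, 7 were called, but none without WT replicate 1, WT replicate 3 or Het replicate 1, and 1 to 4 without another embryo. Eomes, which marks the intermediate progenitors that divide in the subventricular zone, had 40.1, 44.6 and 44.9 CPM in WT and 84.9, 55.5, 61.1 and 63.8 CPM in Het (0.62 ± 0.13, adjusted p = 0.0351). Insm1, a zinc-finger factor that promotes their formation, had 85.7, 78.1 and 74.7 CPM in WT, 127, 104 and 109.8 CPM in Het replicates 1 to 3 and 90.1 CPM in Het replicate 4 (0.44 ± 0.099, adjusted p = 0.0389). Tead2, a Hippo pathway factor of neural progenitors, had 19.1, 20.7 and 19.4 CPM in WT and 26.4, 23.5, 24.3 and 28.4 CPM in Het, with the highest value in Het replicate 4 (0.38 ± 0.067, adjusted p = 0.0186). The fourth was Sox3, at 3.33 to 4.53 CPM in WT and 5.2 to 6.98 CPM in Het (5.9 in Het replicate 4, log2 change 0.59 ± 0.13, adjusted p = 0.0392). Id2, the most abundant, had 540.4 to 631 CPM in WT, 707 to 751 CPM in Het replicates 1 to 3 and 569.7 CPM in Het replicate 4 and was not called (adjusted p = 0.136).

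Of 30 genes of the Notch pathway, by which neighboring progenitors hold each other back from differentiation, 4 were called higher and 0 lower, 2 of them ligands. Dtx4, which was lower as described above, was not on the list. There were 8 calls without Het replicate 4 and 1 or 2 without any other embryo. Mfng, a glycosyltransferase that tunes Notch for its ligands, had 15.5, 14.6 and 14.8 CPM in WT and 23.8, 20.2, 21.2 and 22.4 CPM in Het (0.55 ± 0.059, adjusted p = 0.00349). The receptor Notch1 had 19.6 to 21.6 CPM in WT and 22.8 to 27.4 CPM in Het, where Het replicate 4 had 25.9 CPM (0.32 ± 0.069, adjusted p = 0.036). Dll1, a ligand, had 8.44 to 8.97 CPM in WT and 9.76 to 11.04 CPM in Het (10.7 in Het replicate 4, log2 change 0.28 ± 0.063, adjusted p = 0.039). The ligand Jag1 had 3.47 to 3.78 CPM in WT, 5.29 to 6.44 CPM in Het replicates 1 to 3 and 4.03 CPM in Het replicate 4 (0.56 ± 0.13, adjusted p = 0.0433). The median of the pathway was 0.075, with 0.041, 0.055 and 0.14 in Het replicates 1 to 3 and 0.032 in Het replicate 4 and -0.027 to 0.024 in WT. Hes6, the most abundant member, passed the p threshold but not that on size (0.24 ± 0.061, adjusted p = 0.0468).

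Of 10 Nfi and Sox family genes, 2 were called higher and 0 lower, and 6 were higher without overlap, with 3 higher called without Het replicate 4 and 1 to 2 without another embryo. Nfia and Nfib encode nuclear factor I proteins, which drive the change from neuron to glia production and the formation of the callosal tracts. Nfia had 278, 294 and 265 CPM in WT, 464, 417 and 459 CPM in Het replicates 1 to 3 and 359 CPM in Het replicate 4, above WT and below the other Het embryos (0.61 ± 0.081, adjusted p = 0.00551). Nfib had 1638, 1567 and 1520.4 CPM in WT and 2001, 1799, 1826 and 1950.3 CPM in Het (0.27 ± 0.047, adjusted p = 0.0188). Nfib was also the single call among 12 deep-layer factors, whose median was 0.16 with 0.23 in Het replicate 4, 2 higher called without Het replicate 4 and 0 to 1 without another embryo. Sox11, the most abundant of the Sox genes, had 3849.8 to 4202 CPM in WT and 4308 to 4908 CPM in Het (4308 in Het replicate 4, log2 change 0.20 ± 0.05, adjusted p = 0.048), under the threshold on size. The medians of 11 upper-layer factors were 0.0063, -0.11 and -0.089 in Het replicates 1 to 3, within the WT range of -0.12 to 0.10. Among these factors (median log2 change -0.13, Het replicate 4 at -0.14, 2 lower called without Het replicate 4 and 1 without another embryo) 1 was called, and it was lower. Mef2c, which promotes the maturation of upper-layer neurons and the shaping of their synapses, had 1161, 1088 and 1040.5 CPM in WT and 762, 819.9, 832 and 876 CPM in Het (-0.41 ± 0.053, adjusted p = 0.00514). All 4 Het embryos were below WT, Het replicate 4 the least so, and the KO embryos had 628 to 659.9 CPM. None of 25 interneuron and striatal factors (median log2 change 0.12, Het replicate 4 at 0.23, 0 called without Het replicate 4 and 0 without another embryo) was called by edgeR. Of the 25, 5 had an unadjusted p under 0.05, which held for 26.9% of all genes, and DESeq2 called 1 higher. The most abundant, Meis2, was at 984 to 1019.6 CPM in WT and 873 to 1016 CPM in Het (1016 in Het replicate 4).

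Immediate early genes, which neurons and glia transcribe within minutes of stimulation or stress and which also respond to tissue dissociation, differed from the families above. Of 24 tested, 7 were called higher and 0 lower. The median log2 change was 0.43, but by embryo it was 0.55, 0.51 and 0.50 in Het replicates 1 to 3 and -0.065 in Het replicate 4, against -0.10 to 0.12 in WT. Het replicate 4 thus lay with the WT embryos. Only 3 of the 7 called members, Btg2, Jund and Ier5, were above every WT embryo in Het replicate 4, and in 10 of the 24 Het replicates 1 to 3 were higher than Het replicate 4 by the same call rule, with 3.48% of all genes differing in either direction and with the spread of the single embryo taken from the other groups. Without Het replicate 4, 18 of the 24 were called higher, and without any other single embryo 1 to 3.

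Fos, the AP-1 subunit that is the most used marker of recent activity, had 45.3, 31.1 and 33.4 CPM in WT, 105, 119 and 101 CPM in Het replicates 1 to 3 and 40.2 CPM in Het replicate 4. The log2 change over all 4 Het embryos was 1.32 ± 0.3 (adjusted p = 0.0389), while Het replicate 4 differed from WT by 0.13. Het replicates 1 to 3 exceeded Het replicate 4 by 1.43. Ier2 had 30.8, 23.1 and 25.4 CPM in WT, 41.4, 41.4 and 40.1 CPM in Het replicates 1 to 3 and 28.7 CPM in Het replicate 4 (0.52 ± 0.12, adjusted p = 0.0433). Dusp1, a phosphatase that switches off MAP kinases, had 31.3, 27.5 and 27.6 CPM in WT, 44.0, 44.8 and 43.1 CPM in Het replicates 1 to 3 and 31.0 CPM in Het replicate 4 (0.50 ± 0.11, adjusted p = 0.036). In all 3 genes Het replicate 4 lay within the WT range. So it did in Jun, the fourth such member, with 108 to 118 CPM in WT, 158 to 172 CPM in Het replicates 1 to 3 and 117 CPM in Het replicate 4 (0.42 ± 0.1, adjusted p = 0.0438). Btg2, an antiproliferative gene of neurogenic divisions, was at 39.6 to 45.8 CPM in WT, 56.5 to 63.9 CPM in Het replicates 1 to 3 and 52.2 CPM in Het replicate 4 (0.44 ± 0.073, adjusted p = 0.015). Jund, the most abundant, was at 429.6 to 468 CPM in WT, 579.9 to 618 CPM in Het replicates 1 to 3 and 516 CPM in Het replicate 4 (0.37 ± 0.065, adjusted p = 0.0188).

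The promoters of Dusp1, in which Het replicate 4 lay within WT, and of Btg2, in which it lay above WT, are shown because both called genes hold the cAMP response element TGACGTCA, in capitals. This palindromic motif stood in 2 of the 24 promoters of the 20 matched members, and in 2.86% of the promoters of all genes tested.
Dusp1 (chr17:26508423-26508722, reverse strand): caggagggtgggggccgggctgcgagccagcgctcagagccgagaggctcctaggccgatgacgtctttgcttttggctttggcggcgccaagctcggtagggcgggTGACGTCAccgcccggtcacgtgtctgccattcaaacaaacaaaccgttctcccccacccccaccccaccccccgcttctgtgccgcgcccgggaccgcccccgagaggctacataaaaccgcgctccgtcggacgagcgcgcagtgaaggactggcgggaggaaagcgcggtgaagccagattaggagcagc
Btg2 (chr1:134079106-134079405, reverse strand): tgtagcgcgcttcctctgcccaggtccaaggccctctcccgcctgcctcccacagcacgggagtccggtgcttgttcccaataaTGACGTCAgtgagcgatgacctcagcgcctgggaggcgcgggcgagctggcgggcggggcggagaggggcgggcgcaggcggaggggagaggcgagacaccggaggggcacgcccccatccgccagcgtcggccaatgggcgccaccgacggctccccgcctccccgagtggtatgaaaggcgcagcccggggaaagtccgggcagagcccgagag

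**Figure D4:**
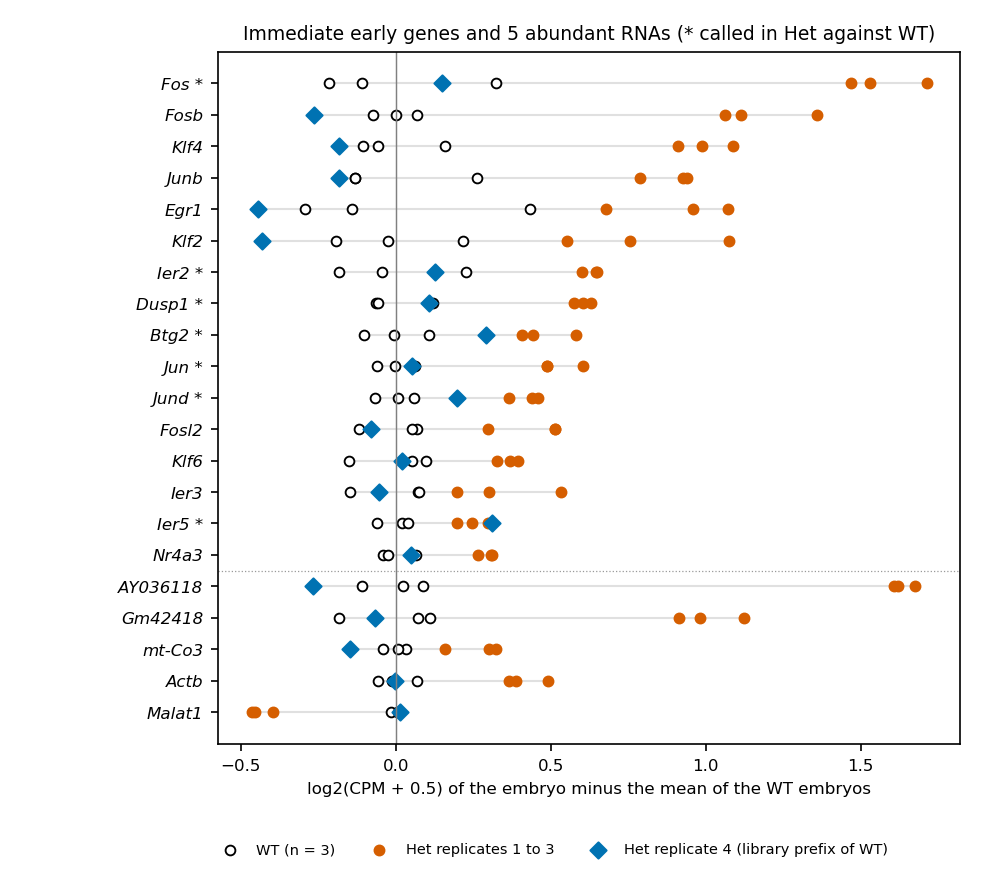
Level in each embryo of the immediate early genes with at least 5 CPM in WT (top) and of 5 abundant RNAs (bottom), as log2(CPM + 0.5) minus the mean of the WT embryos, with symbols for WT, Het replicates 1 to 3 and Het replicate 4. In Fos, Het replicates 1 to 3 are at 101 to 119 CPM and Het replicate 4 is at 40.2 CPM, within the WT range.

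Several abundant RNAs were arranged by prefix in the same way, and were named after their values were seen. AY036118, a gene model overlapping ribosomal RNA repeats, had 324, 295 and 339 CPM in WT, 973, 1019.9 and 981 CPM in Het replicates 1 to 3 and 265 CPM in Het replicate 4, and 964 to 1087 CPM in the KO libraries of the other prefix. Gm42418, of the same kind, had 4165 to 5108 CPM in WT, 8911 to 10315 CPM in Het replicates 1 to 3 and 4521 CPM in Het replicate 4. The nuclear noncoding RNA Malat1 had 24728 to 25147 CPM in WT, 18107 to 19001 CPM in Het replicates 1 to 3 and 25209 CPM in Het replicate 4. None of the 3 was called in Het against WT (adjusted p = 0.0507, 0.0544 and 0.0762). Het replicates 1 to 3 differed from Het replicate 4 by 1.90, 1.07 and -0.45 on the log2 scale. The median share of mitochondrial UMIs per cell was 3.72% to 3.97% in WT, 4.34% to 4.66% in Het replicates 1 to 3 and 3.6% in Het replicate 4. The part of library handling in the early-gene values was not tested, and with 1 Het embryo of the WT prefix the genotype and the prefix cannot be told apart for genes in which Het replicate 4 lay with WT.

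Mitochondrially encoded genes were also nearer to WT in Het replicate 4. Of the 13 tested none was called by edgeR, 4 had an unadjusted p under 0.05 in Het against WT (26.9% of all genes did), and DESeq2 called 1 higher, with 5 higher called without Het replicate 4 and 0 without another embryo. Their median was 0.18, 0.11 and 0.10 in Het replicates 1 to 3 and -0.034 in Het replicate 4, with WT from -0.073 to 0.071. The most abundant, mt-Co3, had 7411 to 7799 CPM in WT, 8513 to 9541 CPM in Het replicates 1 to 3 and 6892 CPM in Het replicate 4.

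Families of RNA processing, translation and respiration had small positive medians and few calls. Called higher were 1.18% of cytosolic ribosomal, 1.28% of mitochondrial ribosomal and 1.3% of nuclear oxidative phosphorylation genes. These shares were below the 1.58% of all genes called higher. Of 85 cytosolic ribosomal protein genes 1 was called, and 47 were higher and 2 lower without overlap. Their median log2 change was 0.078, or 0.11, 0.096 and 0.057 in Het replicates 1 to 3 and 0.07 in Het replicate 4, with WT from -0.018 to 0.018. Het replicate 4 was above all WT embryos in 73 of them, against 29.2% of all genes. The calls turned with that embryo: without it 4 members were called higher and 10 lower, and without any other embryo none was called. The called member was Rps27rt, a gene copy that may share reads with Rps27, at 10.2 to 13.3 CPM in WT, 16.7 to 20.3 CPM in Het replicates 1 to 3 and 13.5 CPM in Het replicate 4 (0.53 ± 0.13, adjusted p = 0.0456). Some members went the other way in Het replicates 1 to 3, among them Rps28 and Rps29, chosen here after their values were seen. Rps28 had 2089.9 to 2386 CPM in WT, 1444 to 1645 CPM in Het replicates 1 to 3 and 2133 CPM in Het replicate 4. Rps29 had 3008 to 3394 CPM in WT, 2153 to 2443 CPM in Het replicates 1 to 3 and 2915 CPM in Het replicate 4. Neither was called in Het against WT (adjusted p = 0.0852 and 0.064). Of 78 mitochondrial ribosomal protein genes 1 was called, Mrpl54, at 43.2 to 46.6 CPM in WT, 57.7 to 58.2 CPM in Het replicates 1 to 3 and 49.5 CPM in Het replicate 4 (0.31 ± 0.055, adjusted p = 0.0189), and 35 were higher without overlap. Their median was 0.13, 0.15 and 0.10 in Het replicates 1 to 3 and 0.035 in Het replicate 4, with WT from -0.016 to 0.02, and 5 higher and 1 lower called without Het replicate 4 and 0 to 1 without another embryo.

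Among 13 genes of SR splicing factors (median log2 change 0.14, Het replicate 4 at 0.088, 4 higher called without Het replicate 4 and 0 to 2 without another embryo) 2 were called higher. Srsf5 had 199 to 209 CPM in WT, 262 to 271 CPM in Het replicates 1 to 3 and 223 CPM in Het replicate 4 (0.32 ± 0.065, adjusted p = 0.0298). Srsf9 had 79.1 to 90.6 CPM in WT, 103 to 108 CPM in Het replicates 1 to 3 and 94.6 CPM in Het replicate 4 (0.26 ± 0.056, adjusted p = 0.0353). Of 25 hnRNP genes, which package and process nascent RNA (median log2 change 0.062, Het replicate 4 at 0.092, 1 higher called without Het replicate 4 and 0 to 1 without another embryo), 1 was called. Hnrnpa0 had 782, 751 and 746 CPM in WT, 1116, 1129 and 1084 CPM in Het replicates 1 to 3 and 831 CPM in Het replicate 4 (0.45 ± 0.092, adjusted p = 0.0298). For Srsf5 and Hnrnpa0 Het replicate 4 was above WT but nearer to it than to the other Het embryos, which differed from it by 0.26 and 0.42. Of 77 nuclear genes of oxidative phosphorylation 1 was called, the complex I subunit Ndufab1, at 197 to 211 CPM in WT, 259 to 269 CPM in Het replicates 1 to 3 and 213 CPM in Het replicate 4 (0.30 ± 0.073, adjusted p = 0.044). The family median was 0.086 with 0.015 in Het replicate 4, and 5 higher and 2 lower called without Het replicate 4 and 0 without another embryo. By edgeR no call was made among 34 translation factors (median log2 change 0.04, Het replicate 4 at 0.041, 1 lower called without Het replicate 4 and 0 without another embryo), 20 glycolysis genes (median log2 change 0.017, Het replicate 4 at 0.016, 4 lower called without Het replicate 4 and 0 without another embryo) or 15 chaperone genes (median log2 change 0.099, Het replicate 4 at 0.042, 3 higher called without Het replicate 4 and 0 without another embryo). Their counts at an unadjusted p under 0.05, which held for 26.9% of all genes, were 13, 8 and 6, and DESeq2 called 1 lower, 1 lower and 2 higher.

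In 9 lists of genes of synapses and excitability every call by edgeR with all embryos was a decrease. Called lower were 3.03% to 17.6% of the tested members of a list, against 1.4% of all genes, and most of these lists had only 1 or 2 calls. DESeq2 called 1 gene of the synaptic vesicle and SNARE list higher and 2 lower. These genes serve neurons that at E16.5 are still migrating or extending axons, before most synapses form. Ionotropic glutamate receptors had 3 calls among 17 genes, 6 lower without overlap, and a median log2 change of -0.20. By embryo the median was -0.38, -0.24 and -0.13 in Het replicates 1 to 3 and -0.11 in Het replicate 4, with WT from -0.10 to 0.055. Leaving out Het replicate 4 gave 5 calls, and any other embryo 0 to 2. Grin1, the obligatory subunit of NMDA receptors, had 15.8, 17.2 and 18.2 CPM in WT and 11.8, 13.7, 13.4 and 13.9 CPM in Het (-0.37 ± 0.065, adjusted p = 0.0174). Of the AMPA receptor subunits, Gria4 had 36.3, 37.5 and 37.4 CPM in WT and 27.4, 31.4, 29.4 and 33.3 CPM in Het (-0.29 ± 0.072, adjusted p = 0.048). Gria2, which sets calcium permeability, had 1132, 1042 and 1027 CPM in WT and 891, 828, 853 and 979.6 CPM in Het (-0.26 ± 0.068, adjusted p = 0.0496). In both AMPA subunits the value of Het replicate 4 was the closest of the 4 to WT. The metabotropic receptors (median log2 change -0.30, Het replicate 4 at -0.20, 1 lower called without Het replicate 4 and 0 to 1 without another embryo) had 1 call among 7, Grm2, at 6.3 to 7.64 CPM in WT and 4.79 to 5.51 CPM in Het (4.79 in Het replicate 4, log2 change -0.51 ± 0.089, adjusted p = 0.017), while Grm5, the most abundant, was not called (adjusted p = 0.15).

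GABA receptors had 2 calls among 16 genes, 5 lower without overlap, and medians of -0.35, -0.11 and -0.12 in Het replicates 1 to 3 and -0.17 in Het replicate 4. The WT embryos ranged from -0.12 to 0.056, so that Het replicates 2 and 3 lay within them. No member was called without any 1 of the WT embryos or Het replicates 1 to 3, or without all KO embryos. There were 2 calls without any 1 of the KO embryos, and 1 higher and 5 lower without Het replicate 4. Gabrb2, a subunit of the GABA-A channel, had 14.1, 14.2 and 13.2 CPM in WT and 10.7, 11.7, 10.9 and 11.9 CPM in Het (-0.29 ± 0.057, adjusted p = 0.0251). All Het embryos were below WT. Gabbr1, the most abundant member and a subunit of the metabotropic GABA-B receptor, was at 132 to 142 CPM in WT and 129.7 to 140.3 CPM in Het (131 in Het replicate 4, adjusted p = 0.75).

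Of 38 synaptic adhesion genes 4 were called lower and 16 were lower without overlap. The median was -0.13, with -0.20, -0.14 and -0.13 in Het replicates 1 to 3 and -0.066 in Het replicate 4 and -0.011 to 0.026 in WT. Without WT replicate 1 or 1 of Het replicates 1 to 3 there were 2 calls, without any 1 of the other WT or KO embryos 4 or 5, and without Het replicate 4 there were 9. Clstn2, a calsyntenin of postsynaptic membranes, had 63.5, 57.0 and 59.1 CPM in WT and 49.9, 49.2, 45.8 and 47.3 CPM in Het (-0.32 ± 0.048, adjusted p = 0.00945). Tenm3, a teneurin that matches connecting neurons, had 96.3, 83.5 and 82.9 CPM in WT and 73.3, 73.7, 71.4 and 64.2 CPM in Het, the lowest in Het replicate 4 (-0.31 ± 0.064, adjusted p = 0.0304). Slitrk1, a postsynaptic organizer, had 55.8, 51.7 and 50.3 CPM in WT and 41.8, 40.8, 42.9 and 46.9 CPM in Het, the highest of the Het values in Het replicate 4 (-0.29 ± 0.053, adjusted p = 0.022). The fourth, Il1rap, was at 3.96 to 5.05 CPM in WT and 2.01 to 2.93 CPM in Het (2.61 in Het replicate 4, log2 change -0.89 ± 0.13, adjusted p = 0.00945).

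Of 21 IgLON, L1 and contactin genes, cell-surface proteins of growing axons, 3 were called lower, with a median of -0.14 and -0.11 in Het replicate 4, and 2 lower called without Het replicate 4 and 1 to 3 without another embryo. Lsamp had 139, 145 and 144 CPM in WT and 114, 119, 110.5 and 122 CPM in Het (-0.29 ± 0.048, adjusted p = 0.0131). Ntm, its relative, had 204, 204 and 193 CPM in WT and 165, 169, 176 and 164 CPM in Het (-0.25 ± 0.038, adjusted p = 0.00945). Cntn5, a contactin, had 18.1 to 21.6 CPM in WT and 12.3 to 15.7 CPM in Het (15.3 in Het replicate 4, log2 change -0.47 ± 0.11, adjusted p = 0.0433). Ncam1, the most abundant, did not pass (adjusted p = 0.779). Among 16 receptor tyrosine phosphatases (median log2 change -0.16, Het replicate 4 at -0.076, 4 lower called without Het replicate 4 and 1 without another embryo) Ptprk was the single call, and Ptprz1, the most abundant, had an adjusted p of 0.375. Of 66 voltage-gated channel genes 2 were called lower and 18 were lower without overlap, with a median of -0.16 and -0.23, -0.083 and -0.099 in Het replicates 1 to 3 and -0.064 in Het replicate 4, against -0.024 to 0.022 in WT. Leaving out Het replicate 4 gave 9 calls, and any other embryo 1. Cacna1c, the pore of an L-type calcium channel, had 30.0, 30.2 and 30.8 CPM in WT and 24.7, 24.8, 23.6 and 26.2 CPM in Het (-0.29 ± 0.038, adjusted p = 0.00551). The other call was the potassium channel Kcnh1, near 1 CPM (-0.56 ± 0.14, adjusted p = 0.0475). Among 6 IP3 and ryanodine receptors (median log2 change -0.18, Het replicate 4 at -0.18 by embryo and -0.38 by the fit, 3 lower called without Het replicate 4 and 1 without another embryo) Itpr1 was the single call. Of 39 genes of synaptic vesicles and SNARE proteins (median log2 change -0.096, Het replicate 4 at -0.025, 4 lower called without Het replicate 4 and 1 to 2 without another embryo) 2 were called lower, both synaptotagmins. Syt16 had 51.7 to 56.9 CPM in WT and 41.0 to 45.5 CPM in Het (44.7 in Het replicate 4, log2 change -0.30 ± 0.045, adjusted p = 0.00945). Syt5 had 66.9 to 73.2 CPM in WT and 54.4 to 59.97 CPM in Het (59.9 in Het replicate 4, log2 change -0.27 ± 0.05, adjusted p = 0.0216). 

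**Figure D5:**
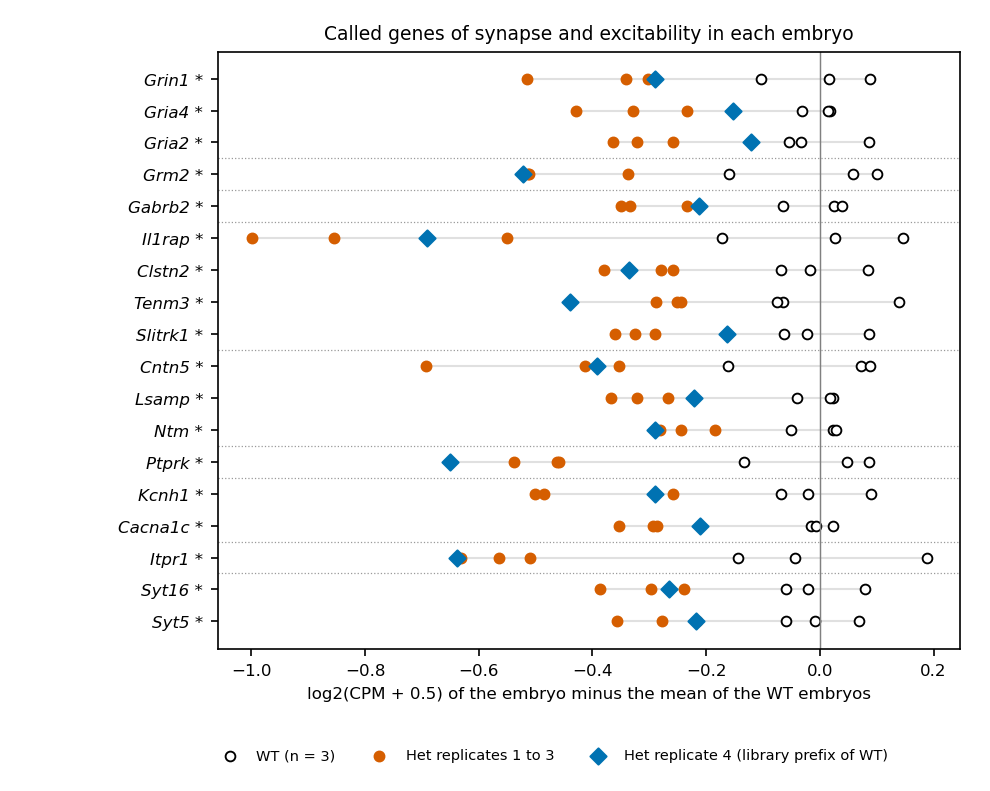
Level in each embryo of called genes of 9 lists of synapse and excitability genes, separated by dotted lines, as log2(CPM + 0.5) minus the mean of the WT embryos, with symbols for WT, Het replicates 1 to 3 and Het replicate 4. All Het points are to the left of all WT points, and Het replicate 4 is the lowest Het embryo in Tenm3 at 64.2 CPM and the highest in Slitrk1 at 46.9 CPM.

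Genes of axon guidance, adhesion and the cytoskeleton gave few calls. Of 30 semaphorin, plexin and neuropilin genes (median log2 change -0.0011, Het replicate 4 at -0.025, 1 higher and 3 lower called without Het replicate 4 and 0 to 1 without another embryo) 2 were called lower. The receptor Plxna4 had 250.2, 224 and 214 CPM in WT and 189, 191, 195 and 173 CPM in Het (-0.29 ± 0.064, adjusted p = 0.036). The ligand Sema7a had 16.0 to 18.1 CPM in WT and 13.4 to 15.3 CPM in Het (14.3 in Het replicate 4, log2 change -0.26 ± 0.062, adjusted p = 0.0433). Unc5c, a netrin receptor that mediates repulsion, was the single call among 16 Slit, Robo, netrin and Unc5 genes (median log2 change 0.074, Het replicate 4 at 0.057, 1 higher and 2 lower called without Het replicate 4 and 0 to 1 without another embryo), at 27.5, 27.2 and 29.1 CPM in WT and 21.4, 24.1, 22.7 and 22.4 CPM in Het (-0.30 ± 0.064, adjusted p = 0.0327). None of 85 cadherin and protocadherin genes and none of 21 ephrin and Eph genes (median log2 change -0.016, Het replicate 4 at 0.0079, 0 called without Het replicate 4 and 0 to 1 without another embryo) was called by edgeR. At an unadjusted p under 0.05 stood 18 and 4 of them, a smaller share than the 26.9% of all genes, and DESeq2 called 5 cadherins lower and 0 ephrins or Eph receptors. Of the cadherins 15 were lower and 0 higher without overlap. Their median was -0.11, with -0.099, -0.13 and -0.12 in Het replicates 1 to 3 and -0.041 in Het replicate 4 and 0.0023 to 0.012 in WT. By edgeR 12 cadherins were called lower without Het replicate 4, and 0 or 1 without another embryo. Of 20 microtubule-associated protein genes (median log2 change -0.02, Het replicate 4 at 0.022, 1 lower called without Het replicate 4 and 0 without another embryo) Mapt, which encodes tau, was called. It had 1105, 1180.2 and 1150.3 CPM in WT, 767, 871 and 875 CPM in Het replicates 1 to 3 and 1068 CPM in Het replicate 4, which lay just below WT (-0.36 ± 0.088, adjusted p = 0.0463, with -0.35 between Het replicates 1 to 3 and Het replicate 4). Of 17 MARCKS and growth-cone genes (median log2 change 0.11, Het replicate 4 at 0.043, 4 higher called without Het replicate 4 and 0 to 1 without another embryo) 2 were called higher. Vim, the intermediate filament of radial glia, had 148, 176 and 179 CPM in WT and 241, 216, 228 and 241 CPM in Het (0.46 ± 0.082, adjusted p = 0.0188). Marcks had 1038 to 1061 CPM in WT, 1285 to 1334 CPM in Het replicates 1 to 3 and 1113 CPM in Het replicate 4 (0.26 ± 0.057, adjusted p = 0.0356). None of 24 tubulin and actin genes (median log2 change 0.096, Het replicate 4 at 0.0044, 5 higher called without Het replicate 4 and 0 without another embryo) was called by edgeR, with 10 at an unadjusted p under 0.05, and DESeq2 called 3 higher.

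Other signaling families had 1 to 3 calls each. Midkine and pleiotrophin are related heparin-binding growth factors that share receptors and are made by radial glia and young neurons, and of the 10 genes of their list (median log2 change -0.13, Het replicate 4 at -0.04, 1 higher and 1 lower called without Het replicate 4 and 2 without another embryo) these 2 were called, in opposite directions. Mdk had 153, 154 and 158 CPM in WT and 258, 210.0, 218 and 218 CPM in Het (0.54 ± 0.066, adjusted p = 0.00395). Ptn had 973, 1004 and 959 CPM in WT and 789, 799, 748 and 710.2 CPM in Het (-0.36 ± 0.056, adjusted p = 0.0108). Het replicate 4 lay with the other Het embryos in both. The KO embryos had 278 to 305 CPM for Mdk and 555 to 644 CPM for Ptn. KO values are given for a few genes only, so they do not show a general grading by the number of alleles lost. The KO libraries also carry the prefix of Het replicates 1 to 3. Of 47 genes of the Wnt pathway (median log2 change 0.026, Het replicate 4 at 0.029, 2 higher and 3 lower called without Het replicate 4 and 0 to 2 without another embryo) 1 was called higher and 2 lower. The ligand Wnt7b had 51.5, 46.8 and 46.9 CPM in WT and 65.9, 58.8, 54.4 and 56.4 CPM in Het (0.28 ± 0.07, adjusted p = 0.0463). The secreted antagonist Dkk3 had 8.58 to 10.5 CPM in WT, 6.17 to 7.14 CPM in Het replicates 1 to 3 and 4.96 CPM in Het replicate 4 (-0.57 ± 0.13, adjusted p = 0.0384). The antagonist Notum was below 1 CPM in all embryos (-1.08 ± 0.19, adjusted p = 0.0178). Of 8 neurotrophin and Trk genes (median log2 change -0.049, Het replicate 4 at -0.051, 1 lower called without Het replicate 4 and 0 to 1 without another embryo) the BDNF receptor Ntrk2 was called, with 106, 114 and 103 CPM in WT and 85.1, 90.1, 93.6 and 91.0 CPM in Het (-0.26 ± 0.057, adjusted p = 0.0377). Of 17 retinoic acid genes (median log2 change -0.051, Het replicate 4 at -0.0086, 1 higher and 1 lower called without Het replicate 4 and 0 to 1 without another embryo) the binding protein Crabp2 was called, at 0.589 to 1.25 CPM in WT and 1.89 to 2.96 CPM in Het (2.35 in Het replicate 4, log2 change 1.46 ± 0.33, adjusted p = 0.0383).

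Other chromatin complexes and families gave few calls. Of 26 BAF subunits (median log2 change 0.01, Het replicate 4 at 0.039, 2 higher and 1 lower called without Het replicate 4 and 0 to 1 without another embryo) 1 was called, Actl6a, the form of this actin-like subunit found in progenitors, at 64.1, 59.7 and 62.4 CPM in WT and 80.2, 72.7, 72.05 and 72.1 CPM in Het (0.26 ± 0.05, adjusted p = 0.0251). None of 29 Polycomb subunits (median log2 change -0.018, Het replicate 4 at 0.043, 2 lower called without Het replicate 4 and 0 without another embryo) was called by edgeR or DESeq2 with all embryos and cells, with 9 at an unadjusted p under 0.05, and at no more than 5% mitochondrial UMIs per cell 1 was called higher and 1 lower. Of the Hox genes 2 were tested, both near 0 CPM, and with all embryos 0 were called by either tool (1 higher called without Het replicate 4 and 0 without another embryo) and 0 had an unadjusted p under 0.05. The most abundant Polycomb gene, Ezh2, was at 207 to 215 CPM in WT and 221 to 248 CPM in Het (248 in Het replicate 4, adjusted p = 0.0869). Of 31 imprinted genes (median log2 change -0.015, Het replicate 4 at 0.059, 1 higher and 2 lower called without Het replicate 4 and 0 to 2 without another embryo) 2 were called higher, both growth regulators. Grb10 was at 19.6 to 20.7 CPM in WT and 22.6 to 25.4 CPM in Het (24.9 in Het replicate 4, log2 change 0.26 ± 0.054, adjusted p = 0.0308). Plagl1 was at 16.2 to 16.495 CPM in WT and 17.5 to 25.7 CPM in Het (23.7 in Het replicate 4, log2 change 0.44 ± 0.11, adjusted p = 0.0497). Of 4 Sall genes (median log2 change 0.13, Het replicate 4 at 0.17, 1 higher and 1 lower called without Het replicate 4 and 0 to 1 without another embryo) Sall4 was called from a level under 1 CPM in every WT and Het embryo, with 0.0501 to 0.1 CPM in WT and 0.232 to 0.373 CPM in Het (0.232 in Het replicate 4, log2 change 1.92 ± 0.38, adjusted p = 0.0268).

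Markers of other cell types were summed in each embryo to set beside these results. As a check of the tissue, the cortical neuron gene Neurod6 was at 867 to 1085 CPM in WT and 921 to 1054 CPM in Het (1054 in Het replicate 4). The interneuron gene Gad1 was at 24.9 to 31.5 CPM in WT and 17.6 to 28.4 CPM in Het (28.4 in Het replicate 4). Of 10 cortical glutamatergic and 10 GABAergic markers none was called by edgeR or DESeq2, with 3 and 2 at an unadjusted p under 0.05, and none without Het replicate 4, while 1 glutamatergic marker was called higher without Het replicate 3. Choroid plexus markers had 5 calls among 14, all lower. Ttr, their most abundant gene, had 1760.5, 107 and 1.83 CPM in WT and 0.0529, 0.0437, 2.77 and 0.032 CPM in Het. The summed level of the list was 27 to 1844 CPM in WT and 24.3 to 26.96 CPM in Het. No member was called without WT replicate 1, Het replicate 1 or Het replicate 2. There was 1 call without Het replicate 3 or any 1 of the KO embryos, and 5 or 6 without another embryo. Cells with at least 1% of their UMIs from Ttr made up 0.383% of WT replicate 1 (exact Clopper-Pearson 95% interval 0.26% to 0.543%), 0.112% of WT replicate 2 (0.048% to 0.22%) and at most 0.018% of any other WT or Het library. Multiciliated markers had 3 calls among 14, all lower and all of genes under 2 CPM in every embryo, with 7 lower called without Het replicate 4 and 1 to 3 without another embryo. The sum of erythroid markers was 12550.0 to 17100.0 CPM in WT, 16710.0 to 22640.0 CPM in Het replicates 1 to 3 and 6099 CPM in Het replicate 4. None of the 9 was called by edgeR, 2 had an unadjusted p under 0.05 and DESeq2 called 1 lower, with 2 higher called without Het replicate 4 and 0 without another embryo. In Het replicate 4 Hbb-bs had 3214 CPM against 6482 to 9092 CPM in WT.

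Het replicate 4 was also low in vascular markers, at 90.8 CPM for endothelial genes against 128 to 165 CPM in WT and 136 to 209.8 CPM in Het replicates 1 to 3, and at 46.8 CPM for mural and fibroblast genes against 76.6 to 84.5 CPM in WT and 91.8 to 111 CPM in Het replicates 1 to 3, which were above WT. None of the 12 endothelial genes was called by either tool in Het against WT, with 0 at an unadjusted p under 0.05, but all 12 were below every WT embryo in Het replicate 4, as were 28.4% of all genes, among them Cldn5 with 22.4 CPM against 35.7 to 50.1 CPM. Of the mural list Pdgfra was called lower and Lum, under 1 CPM, higher, with 2 higher and 1 lower called without Het replicate 4 and 0 to 1 without another embryo. Pdgfra, which also marks oligodendrocyte progenitors, had 4.6 to 5.11 CPM in WT and 2.26 to 3.26 CPM in Het (2.26 in Het replicate 4, log2 change -0.82 ± 0.2, adjusted p = 0.0442). The oligodendrocyte progenitor list (1 called lower, 1 lower called without Het replicate 4 and 0 to 1 without another embryo) summed to 37.7 to 42.6 CPM in WT, 27.4, 41.2 and 38.2 CPM in Het replicates 1 to 3 and 23.3 CPM in Het replicate 4. The radial glia list, in which Vim was called and Fabp7 was the most abundant (3 higher called without Het replicate 4 and 0 to 1 without another embryo), summed to 1282 to 1574 CPM in WT and 1472 to 1668 CPM in Het, with 1539 CPM in Het replicate 4. Of 15 microglia, 9 Cajal-Retzius and 10 thalamic markers none was called by edgeR, with 1, 2 and 1 at an unadjusted p under 0.05, DESeq2 called 0, 1 and 0, and without Het replicate 4 edgeR called 1, 1 and 0. The part of these cell types in the changes above was not tested beyond leaving out the hemoglobin- and Ttr-rich cells, after which 564 genes were called.

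The changes were also read within 2 gates of neurons, set by their own marker genes. They are given there without the value of Het replicate 4, so whether they hold in that embryo is not shown. Glutamatergic-gated cells, with at least 2 UMIs of Neurod2 and Neurod6 together and none of Gad1, Gad2, Dlx1, Dlx2 or Dlx5, were 43.2% to 50.4% of the cells in WT and 47.4% to 55.4% in Het, with 47.9% in Het replicate 4 (exact Clopper-Pearson 95% interval 46.8% to 48.97%). In them 476 genes were called, 295 of them among the 525 called in all cells. In these cells the log2 change was -0.56 for Itpr1 (adjusted p = 0.00183), -0.37 for Grin1 (adjusted p = 0.0148) and -0.40 for Mef2c (adjusted p = 0.00602). Nfia was higher by 0.64 (adjusted p = 0.00183). The median log2 change of the G2/M genes there was -0.14, against 0.20 in all cells, and 3 clustered histone genes were called higher and 1 lower, with Hist1h1e at 0.94 (adjusted p = 0.0199). GABAergic-gated cells, with at least 2 UMIs of those 5 genes together and none of the first 2, were 12.7% to 16.55% of the cells in WT and 16% to 23.4% in Het, with 19.9% in Het replicate 4 (interval 19.04% to 20.8%). Both gates ask for at least 2 UMIs, so their shares depend on depth. The median of UMIs per cell was 10795 to 14844 in WT and 13218 to 14860 in Het. The 10 GABAergic markers, over all cells, summed to 611 to 782 CPM in WT and 534 to 778 CPM in Het. In GABAergic-gated cells 73 genes were called, 34 of them among the 525, and Gatad2b had a log2 change of -0.43 (adjusted p = 0.00894). The medians there were 0.045 for G2/M genes, with 1 called higher, 0.27 for S phase genes, with 3 called higher, and 0.37 for clustered histone genes, with 2 called higher and 0 lower. In glutamatergic-gated cells they were -0.043 for S phase genes, with 1 called lower, and 0.10 for clustered histone genes.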

How the data were processed

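The authors deposited filtered UMI counts per gene and cell, made with Cell Ranger 6.0.2 on the mm10 build per the labels, from 3′ libraries of papain-dissociated cortex, with 1 library per embryo and no pooling. The methods of the paper name an earlier version of Cell Ranger. Here counts were summed per embryo over cells that held 1000 UMIs or more, no more than 10% of them mitochondrial, the limits of the study. Sums of all 10 embryos were fitted with edgeR 4.0.16 (limma 3.58.1, R 4.3.3) by the quasi-likelihood test after filterByExpr and TMM normalization, with Benjamini-Hochberg adjustment over 17647 genes. The limits for a call were an adjusted p of 0.05 and a log2 change of 0.25 in either direction. The study's test over single cells was not used, since the embryo is the replicate. Doublets were not called. The fit was tested on simulated data.

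Contrasts were Het minus WT, Het replicate 4 minus WT, and Het replicates 1 to 3 minus Het replicate 4, the last 2 with Het replicate 4 as its own group. Libraries shared at most 0.325% of their barcodes. Replicate numbers were not used to pair the embryos in the main fit. The members and the 60 lists were chosen with earlier results of these data known, so that counts of list members are a description. Named were all NuRD subunits, up to 4 called members of each list with at least 10 CPM and its most abundant member, and the 8 largest increases and decreases of at least 20 CPM without overlap, 144 genes in all, of which 3 are not reported here. Other genes were named after their values were seen, among them called members under 10 CPM and H2afz, Cks1b, Hist1h1a, Ier5, Jun, Tnr and the RNAs set beside the early genes. Coordinates are from GENCODE M21 and promoters from RefSeq, GRCm38.p6. Python 3.11.15 with pandas 2.3.3, and DESeq2 1.42.0 as an alternative, were used. The sum of an embryo held 93254117 to 123737385 UMIs. Intervals for shares of cells cover counting error only.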

Additional observations from a re-analysis of the deposited data

Results flagged for a closer look

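The values of 204 groups of 4 Het embryos were screened for a single embryo far from the others, by Dixon's ratio at its 95% critical value. Chance flags about 1 in 20 such groups, and 18 were found here. No explanation was tested for any of them.

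Het replicate 4 was the embryo set apart in 12 of the 18. In immediate early genes it was low: Fos was at 40.16 CPM in it and at 100.8 to 119.5 CPM in the other Het embryos, Ier2 at 28.7 CPM against 40.07 to 41.39 CPM, and Dusp1 at 31.04 CPM against 43.07 to 44.83 CPM. The median of immediate early genes over WT was -0.0654 in Het replicate 4 and 0.5015 to 0.5482 in the others, with WT from -0.1023 to 0.1237. Cdk2ap1 was likewise at 79.93 CPM against 124.5 to 134.7 CPM. The remodelers went the other way, with Chd3 at 719 CPM against 570.8 to 589.4 CPM and Chd4 at 370.5 CPM against 301.4 to 311.7 CPM, and so did the median of Polycomb subunits, at 0.0431 against -0.03794 to -0.03314. In 4 genes of RNA processing and mitochondria Het replicate 4 was above WT but below the other Het embryos. Hnrnpa0 was at 831 CPM against 1084 to 1129 CPM, Srsf5 at 223.3 CPM against 262.3 to 270.7 CPM, Mrpl54 at 49.48 CPM against 57.66 to 58.19 CPM, and Ndufab1 at 213.1 CPM against 259.5 to 268.5 CPM.

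Het replicate 1 was the highest embryo for Actl6a, at 80.25 CPM against 72.05 to 72.73 CPM, for Gadd45g, at 58.24 CPM against 48.58 to 49.35 CPM, and for H2afv, at 376.5 CPM against 347.4 to 349.4 CPM. It was the lowest for the imprinted Nnat, at 1385 CPM against 1694 to 1766 CPM in the other Het embryos and 1273 to 1644 CPM in WT. Het replicate 2 was the lowest for Mcm2, at 10.16 CPM against 12.37 to 12.86 CPM. Het replicate 3 was the only Het embryo with Ttr above 1 CPM, at 2.774 CPM against 0.03202 to 0.05291 CPM, and WT replicate 3 had 1.833 CPM.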

How the results depend on the processing

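The number of genes called, 525 with 278 higher, was 507 with DESeq2's size factors, 538 with no filter on low counts, 393 with at least 3000 UMIs per cell, 564 without hemoglobin- or Ttr-rich cells, 476 in glutamatergic-gated cells and 526 with ribosomal protein and mitochondrial genes kept out of TMM. It was 1002 with DESeq2, 159 with the KO embryos left out, 73 in GABAergic-gated cells and 698 at no more than 5% mitochondrial UMIs, where 59.7% were higher against 52.9%, as 64.4% were in GABAergic-gated cells. With the library prefix as a covariate, or Het replicate 4 as its own group, which leaves 1 Het embryo against WT, it was 41, and 2 with only the spread of the WT embryos. Leaving out 1 embryo at a time gave 74 to 1829, 74 without WT replicate 1 and 1829 without Het replicate 4. Of the list members 111 were called, and 22 to 251 when 1 embryo was left out, 177 with DESeq2, 45 without the KO embryos, 28 in GABAergic-gated cells, 14 with the prefix as a covariate and 1 with only the spread of the WT embryos. The replicate block called 1850 genes and 273 list members, but its level 4 holds only Het replicate 4, so this fit drops that embryo. The same-numbered embryos' deviations from their group means correlated at 0.0627, -0.638 and -0.311, and those of differently numbered ones at -0.248 to 0.453. Deviations from the mean of 3 or 4 embryos depend on each other, so these values cannot show which embryos shared a litter. Of the 80 named genes called, 74 kept their sign under all 23 alternatives, but none was called under all of them: they were called under 7 to 22, with a median of 14. The log2 change turned to -0.071 for Cdca3 in glutamatergic-gated cells, and in GABAergic-gated cells to -0.092 for E130114P18Rik, -1.17 for Eomes, -0.099 for Plagl1, 0.069 for Unc5c and -0.38 for Wnt7b, none of them called there. Genes not called in all embryos became called the other way only in Hbb-bs, at -1.26 with the prefix as a covariate, and Rgs5, at -0.84 with the spread of the WT embryos. The cause was not tested. On counts simulated for Het against WT over 17647 genes, 48% of 100 changes of 0.5 and 76% of 100 changes of 1 on the log2 scale were recovered and 12 unchanged genes were called, so that a gene that was not called may still differ by such amounts. Smaller changes were not simulated, and neither was a difference between the prefixes, so the 12 calls do not cover the latter. Only the 100 genes of each size were changed, and recovery depends on the share of genes changed.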

Other observations

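Of the 525 called genes, 205 of the higher and 209 of the lower were on none of the lists, and some of them are given here, chosen after their values were seen. Dlg2, a postsynaptic scaffold of the PSD-95 family, had 64.4, 66.9 and 62.5 CPM in WT and 48.9, 51.6, 53.1 and 52.2 CPM in Het (-0.33 ± 0.043, adjusted p = 0.00551 by edgeR's quasi-likelihood test). Trpc4, a cation channel subunit, had 19.5, 19.4 and 23.0 CPM in WT and 14.0, 14.4, 13.8 and 15.3 CPM in Het (-0.52 ± 0.063, adjusted p = 0.00395). Met, the receptor of hepatocyte growth factor, had 10.5, 9.84 and 9.64 CPM in WT and 5.95, 6.97, 7.56 and 6.24 CPM in Het (-0.58 ± 0.1, adjusted p = 0.0169). Npy1r, a neuropeptide Y receptor, had 14.1, 13.8 and 13.1 CPM in WT and 8.09, 9.59, 10 and 9.36 CPM in Het (-0.56 ± 0.072, adjusted p = 0.00551). Slc7a5, a carrier of large neutral amino acids, had 19.6, 16.49 and 18.1 CPM in WT and 10.1, 10.8, 11.2 and 12.5 CPM in Het (-0.70 ± 0.084, adjusted p = 0.00395). In each of these 5 genes all Het embryos, Het replicate 4 included, were below all WT embryos.

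Among the higher genes outside the lists, Adgrg1, an adhesion receptor of progenitors that is needed for the pial basement membrane, had 28.5, 28 and 29.4 CPM in WT and 35.9, 34.0, 33.8 and 34.2 CPM in Het (0.27 ± 0.038, adjusted p = 0.00801 by edgeR's quasi-likelihood test). Msi2, an RNA-binding protein of neural progenitors, had 106, 110.0 and 107 CPM in WT and 129.6, 137, 139 and 123.4 CPM in Het (0.29 ± 0.051, adjusted p = 0.0179), where the value of Het replicate 4 was the closest to WT. Edil3, an extracellular integrin ligand, had 64.2, 62.4 and 64.8 CPM in WT and 83.2, 80.0, 78.5 and 83.9 CPM in Het (0.35 ± 0.039, adjusted p = 0.00349), where Het replicate 4 was the highest.

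The labels give no sexes, and the X-inactivation transcript Xist and the Y-linked Kdm5d and Uty were read in each embryo. Xist was at 0.154, 1251 and 0.14 CPM in the 3 WT embryos and 1469.7, 1.02, 1317 and 1308 CPM in the 4 Het embryos. Kdm5d was at 30.4, 0.0501 and 0.12 CPM in WT and 0.0635, 29.2, 0.0725 and 0.048 CPM in Het, and Uty at 17.5, 0.0668 and 0.0701 CPM in WT and 0.106, 17.0, 0.114 and 0.072 CPM in Het. Both Y-linked genes were high in WT replicate 1 and Het replicate 2, Xist was high in WT replicate 2 and in Het replicates 1, 3 and 4, and WT replicate 3 was near 0 in all 3 genes. No sex term was fitted.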
